A study of Homo sapiens with 7 samples.

Results

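Trimethylation of lysine 27 on histone H3 (H3K27me3) was mapped by ChIP-Seq in 1 library of HepG2, a cell line derived from a human hepatocellular carcinoma, and the peak list of that library was counted along the genes of the expression table of the same cells. Every peak of the list was taken, which gave 26271 peaks out of 319086 in the 5 histone mark lists of the series. The cells were untreated as far as the labels say, and each of the 7 samples is a single sample of 1 assay: RNA-Seq, native MNase-Seq for nucleosome positions, and ChIP-Seq for H3K27me3, H3K9me3, H3K27ac, H3K9ac and H3K4me3. With 1 H3K27me3 library there was no replicate check, so no P value is given and values are compared as a description. Each peak is 146 bp long and carries the identifier of 1 nucleosome position of 140 bp, and the list gives neither a height nor the reads behind a peak, so peaks could not be weighed by depth. Expression is given as FPKM (fragments mapped per kilobase of transcript, scaled to the size of the library) in 2 columns of 1 RNA-Seq sample, and their mean was used. Of 14 hepatocyte marker genes 13 had a mean FPKM of 1 or more, led by ALB at 9933 and 10088 in the columns, whereas 3 of 15 markers of blood, fibroblast and endothelial cells did.

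H3K27me3 is written by Polycomb repressive complex 2, whose catalytic subunit is EZH2 or EZH1, and is removed by demethylases of the KDM6 family. Polycomb repressive complex 1 binds the mark through its CBX subunits and compacts the chromatin. In differentiated and cancer cells the mark is known for covering CpG-rich promoters and whole loci of developmental regulators and of genes that belong to other cell types, where it goes with low transcription.

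The promoters of 4 genes are shown first, since runs of 6 to 8 H3K27me3 peaks lay at or near the start of the first 3, while at the fourth a run of 6 lay inside the gene. The sequences are from RefSeq, run 5′ to 3′ from 250 bases before to 50 bases after the start, and have each CG dinucleotide in capitals. The peaks themselves have hg19 coordinates and were not placed on these letters.
KCNK4 (GRCh38.p14, chr11:64291748-64292047, plus strand, the entry with the most CG of 3): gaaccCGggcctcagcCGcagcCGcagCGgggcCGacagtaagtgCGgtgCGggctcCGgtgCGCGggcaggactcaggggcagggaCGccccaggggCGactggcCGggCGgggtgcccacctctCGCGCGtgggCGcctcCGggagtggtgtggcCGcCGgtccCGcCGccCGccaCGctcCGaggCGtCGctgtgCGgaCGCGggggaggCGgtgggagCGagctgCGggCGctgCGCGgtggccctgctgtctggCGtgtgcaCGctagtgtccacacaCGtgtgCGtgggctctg
EGR4 (GRCh38.p14, chr2:73293499-73293798, minus strand): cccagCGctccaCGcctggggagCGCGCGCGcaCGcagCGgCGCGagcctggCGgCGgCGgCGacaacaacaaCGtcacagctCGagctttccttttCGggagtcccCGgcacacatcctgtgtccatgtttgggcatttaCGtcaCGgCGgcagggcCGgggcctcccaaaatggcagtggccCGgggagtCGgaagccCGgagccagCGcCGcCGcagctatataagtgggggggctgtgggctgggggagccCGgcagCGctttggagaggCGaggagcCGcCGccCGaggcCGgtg
TWIST2 (GRCh38.p14, chr2:238847835-238848134, plus strand): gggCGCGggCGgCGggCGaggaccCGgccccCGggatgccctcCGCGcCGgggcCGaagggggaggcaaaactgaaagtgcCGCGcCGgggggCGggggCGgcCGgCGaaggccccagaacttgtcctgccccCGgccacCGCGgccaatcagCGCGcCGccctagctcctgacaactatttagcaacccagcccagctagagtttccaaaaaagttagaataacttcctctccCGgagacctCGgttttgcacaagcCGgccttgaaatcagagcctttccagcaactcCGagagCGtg
TCHH (GRCh38.p14, chr1:152115395-152115694, minus strand): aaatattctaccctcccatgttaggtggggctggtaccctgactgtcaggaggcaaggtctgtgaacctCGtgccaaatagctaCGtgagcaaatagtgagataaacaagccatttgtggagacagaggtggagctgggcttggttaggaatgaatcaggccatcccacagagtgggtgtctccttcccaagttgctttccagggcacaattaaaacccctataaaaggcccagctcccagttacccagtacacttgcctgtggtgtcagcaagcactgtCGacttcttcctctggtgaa

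These promoters held 41, 35, 29 and 3 CG dinucleotides. The motif CG, which reads the same on both strands, occurred in 96.0% of the 35116 promoters of the same length, with a median of 14. As many CG as in KCNK4 were found in 6.69% of them, and as many as in EGR4 in 14.1%. A comparison of CG content between gene sets is void, because promoters were matched for only 71.7% of the loci with a span of their own and for 61.8% of the silent ones without a peak near the start.

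The 26271 peaks covered 0.185% of the 14217405 nucleosome positions, against 0.243% for H3K9me3. The paper reports a larger share of nucleosomes for each mark than both of these values, and the reason for the gap was not tested. A locus with 0 peaks is therefore one without a listed peak. Of these peaks 24888 (94.7%) stood on positions with no other mark. H3K4me3 was present on 388 of them (1.48%, 95% interval 1.33 to 1.63%), H3K9me3 on 872 (3.32%) and H3K27ac, which occupies the same lysine, on 27 (0.103%, 0.0677 to 0.149%). The H3K9me3 share was above the 0.243% of all positions with that mark. H3K27ac had 95886 peaks over the 14217405 positions. H3K9ac was present on 298 of the H3K27me3 peaks (1.13%). The H3K4me3 and H3K9ac shares were not set against those of all positions. Intervals are exact Clopper-Pearson 95% intervals and cover counting error only.

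Genes that HepG2 expresses had the lowest share of marked positions. Within the spans of loci at an FPKM of 1 or more, 0.0533% of positions had an H3K27me3 peak (0.0510 to 0.0557%, 3660842 positions). The share was 0.234% in spans of loci at 0.1 to 1 and 0.290% (0.282 to 0.297%) in spans of silent loci only, where silent means an FPKM under 0.1. It was 0.241% within 10 kb of a named locus and 0.210% elsewhere, and 53.8% of the peaks lay elsewhere, where 47.3% of all positions are. For H3K9me3 the shares were 0.120% in expressed spans, 0.239% in silent spans and 0.330% elsewhere, so that its highest share lay outside the named loci and that of H3K27me3 in silent genes. H3K27ac had 1.67% in expressed and 0.105% in silent spans.

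The expression table has 21276 named loci on chromosomes 1 to 22, X and Y, a locus being a symbol with its span. Of these 7240 share their span with another row, so their peaks cannot be assigned to 1 gene, and 14036 have a span of their own. Counting the span and 10 kb on each side, 6610 loci (31.1%, 30.4 to 31.7%) had at least 1 H3K27me3 peak, 890 (4.18%) had 5 or more and 226 (1.06%) had 10 or more. The median locus had 0 peaks and the highest count was 47. Over all loci the pooled density was 0.152 peaks per 100 nucleosome positions.

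Loci with more H3K27me3 peaks were more often silent, against 36.9% silent among all 21271 loci with a usable FPKM. The silent share was 29.9% (29.1 to 30.6%) of 14663 loci with no peak, 43.8% of 3226 with 1 peak, 57.3% of 2492 with 2 to 4, 67.9% of 664 with 5 to 9 and 77.0% (70.9 to 82.3%) of 226 with 10 or more. The median FPKM over the same classes went from 3.89 through 0.277, 0.0519 and 0.0237 to 0.0121. Loci at an FPKM of 1 or more made up 60.1% of those with no peak and 11.9% of those with 10 or more, where 51.8% of all loci were at that level. Among loci with a span of their own, 42.2% of which were silent, the share rose from 34.7% to 84.8% over the same classes. With H3K9me3 peaks counted the same way, the silent share was 35.02%, 35.7%, 42.8%, 50.3% and 75.3%.

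**Figure D1:**
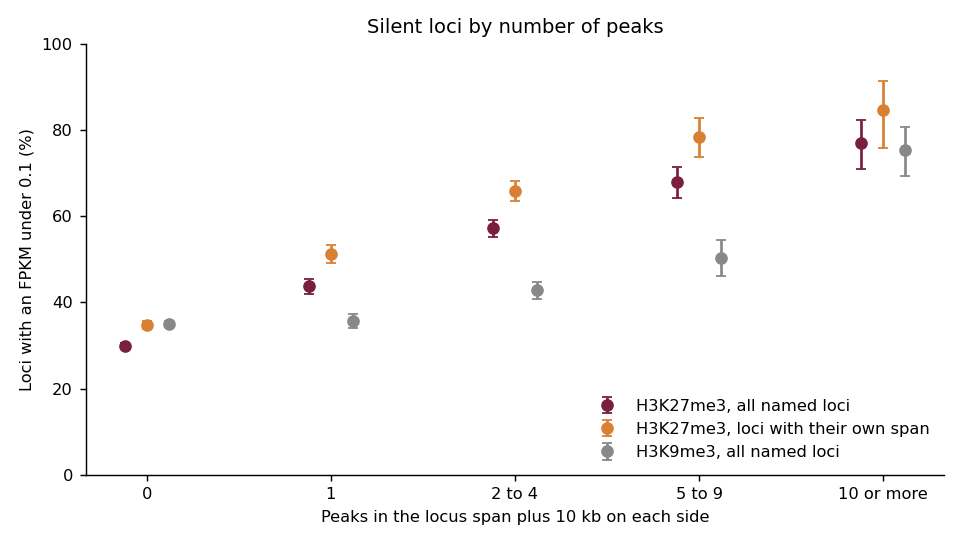
Share of loci with an FPKM under 0.1 (vertical axis, percent) by the number of peaks in the span plus 10 kb on each side (horizontal axis), with exact 95% intervals as bars. The H3K27me3 points for all named loci climb from 29.9% to 77.0%, those for loci with their own span from 34.7% to 84.8%, and the H3K9me3 points stay between 35.02% and 50.3% until 10 or more peaks.

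Peak counts grew with the length of the locus: the median span was 28.4 kb with no peak and 678 kb with 10 or more. The difference in silent share was therefore read at like lengths, among loci with their own span. In spans of up to 5 kb, 85.9% of 608 loci with a peak and 69.9% of 2136 without one were silent. The shares were 63.8% and 35.6% at 5 to 20 kb, 49.9% and 20.9% at 20 to 50 kb, 51.0% and 18.0% at 50 to 100 kb, and 55.0% and 11.3% above 100 kb. By density, the silent share was 30.8% with no peak, 47.3% at up to 0.5 peaks per 100 positions, 67.9% at 0.5 to 1, 72.5% at 1 to 2 and 80.0% (72.4 to 86.3%, 140 loci) above 2. Across 13051 loci with their own span, Spearman's rho of density with FPKM was -0.30 for H3K27me3 and -0.11 for H3K9me3. These are correlations across loci, which share the libraries and are not independent replicates.

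The loci with the most peaks were very long genes. CSMD1, a large membrane protein with CUB and sushi domains, had 47 peaks over chr8:2792875-4852328 (2059 kb), or 0.463 per 100 positions, and its FPKM was 0.00503 and 0 in the columns. DPP6, an auxiliary subunit of neuronal potassium channels, had 30 peaks (0.592 per 100 positions) and an FPKM of 0.0258 and 0.0198. The span that holds FGF14, an intracellular FGF that acts on sodium channels, had 26 peaks, and FGF14 was listed at 0 in both columns. RBFOX1, a neuronal splicing factor, had 24 peaks and was listed at 0, and FAT3, a giant cadherin, had 21 with an FPKM of 0.0265 and 0.00411. Heparanase-like HPSE2 and the reelin adaptor DAB1 had 21 each, and DOCK3 and CTNND2, both known from neurons, had 20 each. All these densities were at or below 0.592 per 100 positions. The 20 loci with the most peaks have 12 distinct spans, from 664 to 2071 kb. Of the 20, 16 were silent, against 36.9% of all loci. The exceptions at an FPKM of 1 or more shared a span with a gene under that level: PHF3 (25.3 and 24.9), which shares its 25 peaks with EYS, and PACRGL (6.94 and 7.32), which shares its 23 with KCNIP4.

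H3K9me3 was also abundant in these giant loci, with 41 peaks in CSMD1, 21 in DPP6 and 27 in RBFOX1, against 6, 0 and 0 H3K27ac peaks. RBFOX1 thus had more H3K9me3 than H3K27me3 peaks. Some large genes with their own span had many more of the latter: MYO3A, a myosin of the inner ear, had 17 H3K27me3 and 4 H3K9me3 peaks (1.15 H3K27me3 peaks per 100 positions), and TMEM108 had 16 and 4 (0.787). Both were listed at 0 in both columns.

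By density, the ranking turned from giant genes to short ones, with a median span of 9.39 kb for the 20 densest loci of at least 100 positions, against 976 kb for the 20 with the most peaks. KCNK4, a mechanosensitive background potassium channel, was first, with 9 peaks in 143 positions around chr11:64058793-64067503, or 6.29 per 100, and an FPKM of 0.0213 and 0.0255. EGR4, a zinc finger transcription factor of the early growth response family, had 8 in 128 (6.25) at chr2:73518057-73520829 and an FPKM of 0.109 and 0.0872. The forkhead factor FOXB1 had 6 in 120 (5 per 100) at chr15:60296421-60299630 and an FPKM of 0 and 0.0332. TCHH, trichohyalin of the hair follicle, had 7 in 144 (4.86) at chr1:152078769-152086556, and the homeobox gene BSX of the hypothalamus 5 in 122 (4.10), both listed at 0. GCGR, the glucagon receptor, also had 5 in 122, with an FPKM of 0.174 and 0.1001. GRK1, the rhodopsin kinase, had 7 in 180 (3.89) and the homeobox gene GSC2 4 in 106 (3.77), both listed at 0.

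Of these 20 loci 11 were silent and 6 were at an FPKM of 1 or more, where 36.9% and 51.8% of all loci were. Part of the latter were neighbours whose 10 kb flanks reached the peaks of KCNK4: PRDX5 (151 and 153), TRMT112 (154 and 158) and C11orf20,ESRRA (18.4 and 18.2) share a span that counted 9 peaks, and BAD (11.4 and 11.3) and GPR137 (8.77 and 7.39) share one that counted 8. Inside both of these spans the count was 0. The sixth, RNU6ATAC, is a small nuclear RNA gene with an FPKM of 0 and 16.9, so its columns differed. LGALS9C (5.08 per 100) and LGALS9B (5 per 100), galectin genes that are near-identical copies, have uncertain counts because reads can be split between them.

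Highly expressed genes with 5 or more peaks were mostly members of shared spans. The 10 with the highest FPKM, among them PRDX5, TRMT112, CTSD and EIF3M, ranged from 73.1 to 156 in mean FPKM and all shared their span with another row. Among loci with their own span the highest were ROBO1, an axon guidance receptor, with 11 peaks and an FPKM of 22.8 and 21.9, and the tumour suppressor DLC1 with 6 peaks and 18.3 and 16.8. These loci also carried 44 and 57 H3K27ac peaks, and their H3K27me3 densities were 0.185 and 0.260 per 100 positions. FHIT had 17 peaks over 1502 kb with an FPKM of 10.2 and 8.03.

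Around the start of silent genes H3K27me3 formed a narrow maximum, read at loci with their own span, whose start was taken as the transcription start. Within 2 kb of the start, 1.43% of positions had a peak (1.358 to 1.499%) at 5919 silent loci, 1.23% (1.10 to 1.36%) at 1486 loci with an FPKM of 0.1 to 1, 0.259% (0.218 to 0.306%) at 2888 with 1 to 10, and 0.0411% (0.0275 to 0.0590%) at 3738 with 10 or more. At silent loci the share was 1.94% on the downstream side and 0.927% on the upstream side, and it had fallen to 0.244% at 5 to 10 kb upstream. At loci with an FPKM of 10 or more there was no maximum, and the share was 0.129% at 5 to 10 kb upstream but 0.0226% at 5 to 10 kb downstream. H3K9me3 at silent loci was 0.243% within 2 kb and 0.212% at 5 to 10 kb upstream. It also had a maximum at the start, narrower and lower, with 0.556% (0.436 to 0.699%) in the first 500 bp downstream, where H3K27me3 had 2.99%.

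**Figure D2:**
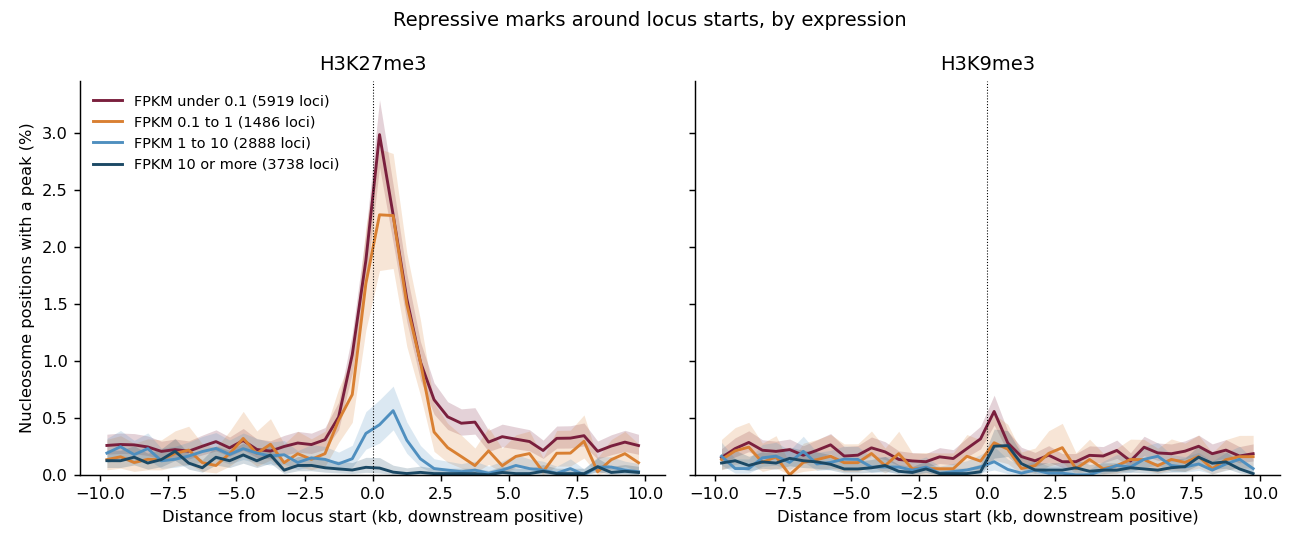
Percent of nucleosome positions with an H3K27me3 peak (left) or an H3K9me3 peak (right) in 500 bp bins by distance from the start of loci with their own span, in 4 classes of FPKM; shading is the exact 95% interval. The H3K27me3 curves of silent loci and of loci at 0.1 to 1 rise at the start, to 2.99% and 2.28% in their highest bins, while the curve at 10 or more stays flat at the start, and the H3K9me3 curve of silent loci reaches 0.556%.

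At least 1 peak within 2 kb of the start was found at 9.09% of the 14031 loci with their own span and an inferred strand: at 952 of the silent loci (16.1%), 218 of those at 0.1 to 1 (14.7%), 82 of those at 1 to 10 (2.84%) and 23 of those at 10 or more (0.615%). Thus 4967 silent loci had none. Counts of 5 or more were found at 23 loci (0.164%). Of these 15 were silent, against 42.2% of all loci with their own span, and none reached an FPKM of 10. KCNK4, NOL4 and ESRRG had 8 within 2 kb. EGR4, COL12A1, PCSK2 and MDGA2 had 7. OPN1LW, TWIST2 and FAM135B had 6, where OPN1LW, the long-wave opsin, has near-identical neighbours and an uncertain count. The 13 with 5 included the glucagon receptor GCGR, FOXB1, the Wnt agonist RSPO2, the ephrin receptor EPHA4, the integrin ITGA8 and the neuronal adhesion molecule NRCAM. The 3 loci at an FPKM of 1 or more were GALNTL4 (4.22 and 3.72), EMILIN2 (2.05 and 2.06) and SHISA9 (1.62 and 1.66). Of the 23 loci 10 (43.5%, 23.2 to 65.5%) also had H3K4me3 within 2 kb, against 53.3% of all 14031 loci and 11.3% of the silent ones. Among the 15 silent loci of the 23 it was 5 (33.3%, 11.8 to 61.6%).

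The order of the peaks along these starts differed between genes. At KCNK4 the 8 peaks lay 124 to 1914 bp downstream of the start, with none upstream. At EGR4 the 8 peaks within 5 kb also lay downstream only, from 173 to 2108 bp. H3K4me3 was on 4 positions within 5 kb of the EGR4 start, and 2 of these also had an H3K27me3 peak. At ESRRG, an orphan nuclear receptor listed at 0 in both columns, 4 lay upstream and 4 downstream, from -1334 to 1301 bp. At PCSK2, a neuroendocrine proprotein convertase with an FPKM of 0 and 0.0102, the 7 peaks lay from -989 to 1008 bp. At NOL4 (0.0443 and 0.199) 6 of the 8 lay downstream, and at FOXB1 4 of 5. H3K27ac was at 0 positions within 5 kb of each of the 6 starts.

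**Figure D3:**
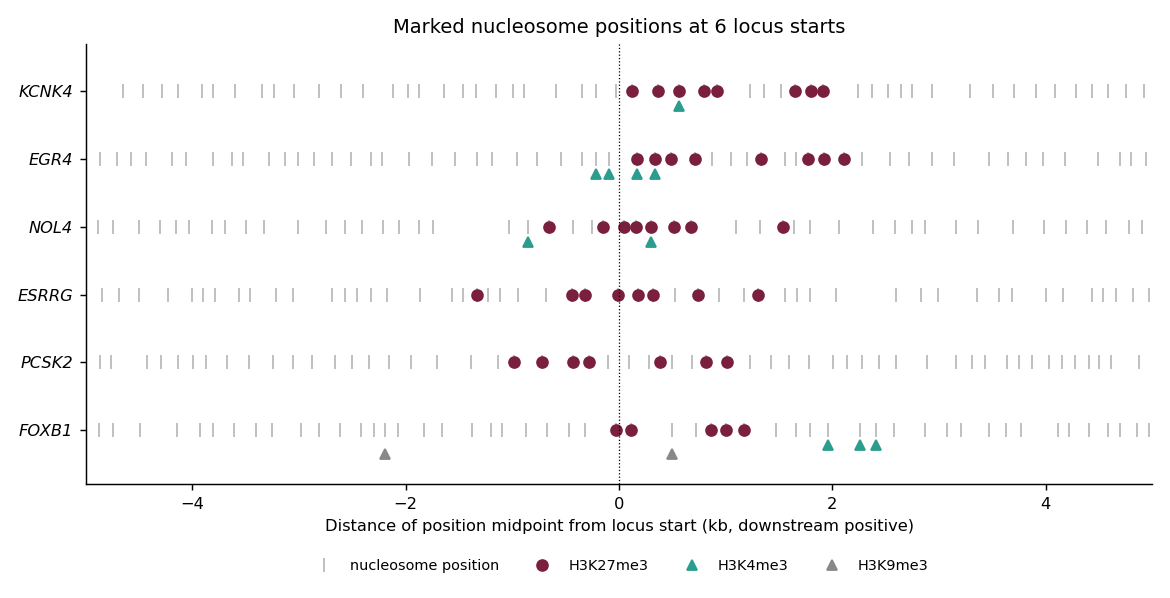
Nucleosome positions (grey ticks) within 5 kb of 6 locus starts by distance of their midpoint in kb, with the positions that had an H3K27me3 peak as red circles and those with H3K4me3 or H3K9me3 as triangles under them. The red circles of KCNK4 and EGR4 sit only downstream of the start, while those of ESRRG and PCSK2 lie on both sides. The 6 genes were chosen after their values were seen.

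Most H3K27me3 peaks of the list stood alone. The list holds only peaks that passed the authors' filters on shape and on enrichment over input and local background. Whether marked neighbours were filtered out was not tested. With neighbours joined up to a gap of 1 kb, 79.2% of the peaks were single and only 49 stretches held 5 or more, with 1.11% of the peaks, against 0.446% for H3K9me3 and 54.7% for H3K27ac. With a gap of 10 kb, 59.9% were single and 138 stretches held 5 or more (2.98% of the peaks). The 49 compact stretches had a median length of 1.78 kb, and in the median 71.4% of the positions between their ends had a peak. Of them 27 (55.1%, 40.2 to 69.3%) lay within 2 kb of the start of a locus with its own span. Of these 27 genes 19 were silent (70.4%, 49.8 to 86.2%), against 42.2% of all loci with their own span. Of the peaks in them, 47.8% were within 2 kb of such a start, against 19.0% of those in stretches of 2 to 4 and 4.48% of single peaks, where 1.78% of all positions are. Among the 49, 16 held a position that also had H3K4me3, 5 one with H3K9me3 and 0 one with H3K27ac.

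With a gap of 10 kb the longest runs held 9 peaks. Those at KCNK4 and LOC339240 (chr17:18326304-18349856) and at C5orf60 (chr5:179069824-179078554) lay on named loci, and 1 at chr2:92027884-92032789 overlapped none. Compact runs of 8 were also found over PGR (chr11:100998024-101000119), the progesterone receptor, which was listed at 0, and over LPHN3 (chr4:62065729-62067984), an adhesion receptor of neurons. A run of 6 lay inside TCHH (chr1:152082381-152083274), 3355 bp from the start, on 6 of 7 positions.

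Of 28732 windows of 100 kb, 13444 (46.8%) had an H3K27me3 peak and 14 (0.0487%) had 10 or more. The mean was 0.914 peaks per window, and the variance was 1.92 times the mean. The densest 1% of windows held 7.54% of the peaks, against 7.25% for H3K9me3 and 9.90% for H3K27ac. Windows with more H3K27me3 held more silent genes: among loci that start in them, 28.1% were silent where the window had no peak, 38.8% with 1, 54.1% with 2 to 4 and 68.8% with 5 or more. Over the same classes the share of windows with H3K9me3 was 49.0%, 60.6%, 67.5% and 75.04%, and that with H3K27ac 44.8%, 33.0%, 25.3% and 16.4%.

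The window with the most peaks, chr17:18300001-18400000, had 14 in 289 positions and holds LOC339240 and LGALS9C, both silent. The count at LGALS9C is uncertain, as said above. The window chr1:152000001-152100000 had 13 in 516 and holds the hair follicle genes TCHH and TCHHL1 with 7 and 5 peaks, both listed at 0, next to S100A11, a calcium-binding protein with 0 peaks and an FPKM of 24.1 and 26.6. The 5 peaks counted for TCHHL1 lay in its flanks, with 0 inside its span. The window chrX:153800001-153900000 had 12 in 180. Here IKBKG (15.1 and 13.7), a regulator of NF-kappaB signalling, shares a span with the cancer-testis genes CTAG1A and CTAG1B, listed at 0, so its 6 peaks could not be assigned. In the same window CTAG2, which has a span of its own and was listed at 0, had 7 peaks, all in its flanks. A run of 7 peaks at chrX:153877759-153887842 reached over both ends of CTAG2, but 0 peaks lay within 2 kb of its start. The whole gene (chrX:153880246-153881853) is within that distance. A window on chromosome 6 (chr6:70900001-71000000) had 11 peaks and holds the collagen genes COL19A1 and COL9A1. Of the windows with 10 peaks, 1 each holds TBX20, a T-box factor of the heart, CBLN2, a synapse organizer, PGR, ESRRG and HPSE2, all silent. In the 15 top windows 18 of 25 named loci were silent, against 36.9% of all loci. Of these windows 3 held no named locus, and 13 had no H3K27ac peak. Of the 15, 5 had fewer than 300 positions, where the median window had 514. Among windows with 300 or more positions, a setting that was not planned, 10 had 10 or more peaks.

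Per chromosome the share of positions with an H3K27me3 peak ran from 0.0580% (0.0501 to 0.0668%, 192 of 331001) on chromosome 20 to 0.237% on chromosomes 15 and 18, with a median of 0.178%. Chromosome 20 also had the lowest H3K9me3 share, 0.0622%, whereas its H3K27ac share was 0.869% and 37.9% of its loci were silent. Only 11.4% of its loci had an H3K27me3 peak, against 31.1% of all loci. The autosomes after it were chromosomes 16 (0.125%), 21 (0.138%), 17 (0.141%), 14 (0.143%), 2 (0.146%) and 6 (0.150%). HepG2 is known to carry extra copies of several chromosomes, and copy number is not measured in these files.

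**Figure D4:**
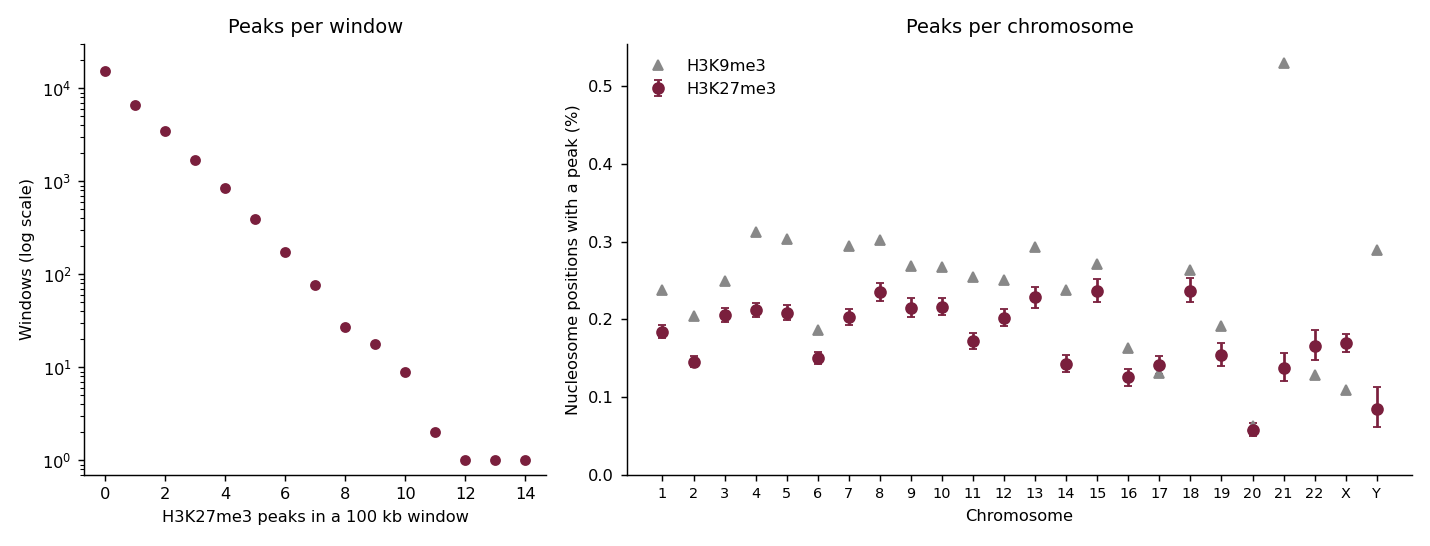
Left: number of 100 kb windows (log scale) by their count of H3K27me3 peaks, from windows with 0 peaks to 1 window with 14. Right: percent of nucleosome positions with an H3K27me3 peak (circles, exact 95% intervals) or an H3K9me3 peak (triangles) per chromosome, where chromosome 20 is the lowest for both, at 0.0580% and 0.0622%.

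Among developmental transcription factors the share of loci with a peak was above that of all loci (31.1%), while in the HOX clusters it was 26.7%. The homeobox and paired-box list was 75.7% silent and the bHLH, T-box, SOX, FOX and GATA list 72.3%, against 36.9% of all loci. A comparison with silent loci alone was not made. Of 115 other homeobox and paired-box loci, 61 (53.0%, 43.5 to 62.4%) had a peak, at 0.320 peaks per 100 positions against 0.152 over all loci. PRRX1, a factor of limb mesenchyme, had 7 and NKX6-1, of the pancreas and spinal cord, had 5, both listed at 0, and the neuronal POU4F1 had 4 at an FPKM of 1.54 and 1.30. The 4 peaks of POU4F1 lay in its flanks, with 0 inside its span. Of 83 bHLH, T-box, SOX, FOX and GATA loci, 51 (61.4%, 50.1 to 71.9%) had a peak, and their density of 0.541 was the highest of the lists. The mesenchymal factor TWIST2 had 8 peaks, 6 of them within 2 kb of the start, with an FPKM of 0.192 and 0.402. SOX5 had 9 over a shared span of 1033 kb, at an FPKM of 9.58 and 10.6 and with 33 H3K27ac peaks. Of 30 HOX loci 8 (26.7%, 12.3 to 45.9%) had a peak, an interval that includes the 31.1% of all loci, and 18 were silent. Their density of 0.148 peaks per 100 positions was near the 0.152 of all loci. None had more than 2 peaks, which is also the 90th percentile over all loci. Of these 30 loci 19 share a span.

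Families of signalling and neuronal genes also had shares above the 31.1% of all loci. They were mostly silent: 68.2% of ligand, 76.5% of potassium channel, 76.7% of neurotransmitter receptor and 64.6% of cadherin loci, against 36.9% of all loci. Their densities were 0.294, 0.266, 0.244 and 0.202 peaks per 100 positions, where spans of silent loci only had 0.290 without flanks. Whether these shares exceed those of silent loci of like length was not tested. Of 66 loci of ligands 31 (47.0%, 34.6 to 59.7%) had a peak, with FGF14 at 26, FGF12 at 16 and WNT5A at 6 (2.71 per 100 positions, FPKM 0.0198 and 0.0219). The share was 47 of 81 (58.0%) for potassium channels, where KCNQ5 had 11 and KCNK2 10. It was 62 of 103 (60.2%) for neurotransmitter receptors, where the GABA receptor subunit GABRG3 had 18 and the glutamate receptors GRIK1 and GRID1 had 15 each. It was 32 of 48 (66.7%, 51.6 to 79.6%) for cadherins and protocadherins, where CDH13 had 14, PCDH9 11 and CDH6 9. Cadherin loci are long, with a median of 109 kb against 35.7 kb for all loci, and their density of 0.202 was nearer to that of all loci than their share of loci was. Potassium channel and receptor loci had median spans of 45.7 and 63.7 kb. Within the potassium channels 85.1% of the loci with a peak and 64.7% of those without were silent, and within the receptors 83.9% and 65.9%. Ligands, cadherins and the non-HOX developmental factors went the same way. So did C2H2 ZNF loci, at 19.5% and 12.4%. Ribosomal protein and liver plasma protein loci had only 1 silent locus each. HOX, keratin and olfactory receptor loci did not: the shares were 50% and 63.6% for HOX loci and 90.7% and 91.9% for keratin loci. For olfactory receptor loci they were 98.6% and 98.7%.

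Families that were almost wholly silent differed in how they compared with all loci. Olfactory receptor genes, 98.7% of them silent, had a peak at 138 of 375 loci (36.8%, 31.9 to 41.9%) at 0.294 peaks per 100 positions against 0.152 for all loci. When only the span was counted, 13.3% had a peak, against 21.2% of all loci. Keratin and keratin-associated protein genes, 91.5% silent, had one at 43 of 142 (30.3%, 22.9 to 38.5%), at 0.186 per 100 positions. Of 503 C2H2 ZNF loci 123 (24.5%, 20.8 to 28.5%) had a peak, and 370 of the 503 were at an FPKM of 1 or more.

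Of 74 loci of liver plasma proteins 17 (22.97%, 13.99 to 34.2%) had a peak, at 0.149 per 100 positions, and this interval includes the 31.1% of all loci, whose density was 0.152. F11, coagulation factor XI, stood out with 13 peaks over a shared span of 235 kb and an FPKM of 23.9 and 23.4, and no other member had more than 3. Of 85 cytosolic ribosomal protein loci 11 (12.9%, 6.64 to 21.98%) had a peak, at 0.0667 per 100 positions, both below the values of all loci, and 82 were at an FPKM of 1 or more.

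**Figure D5:**
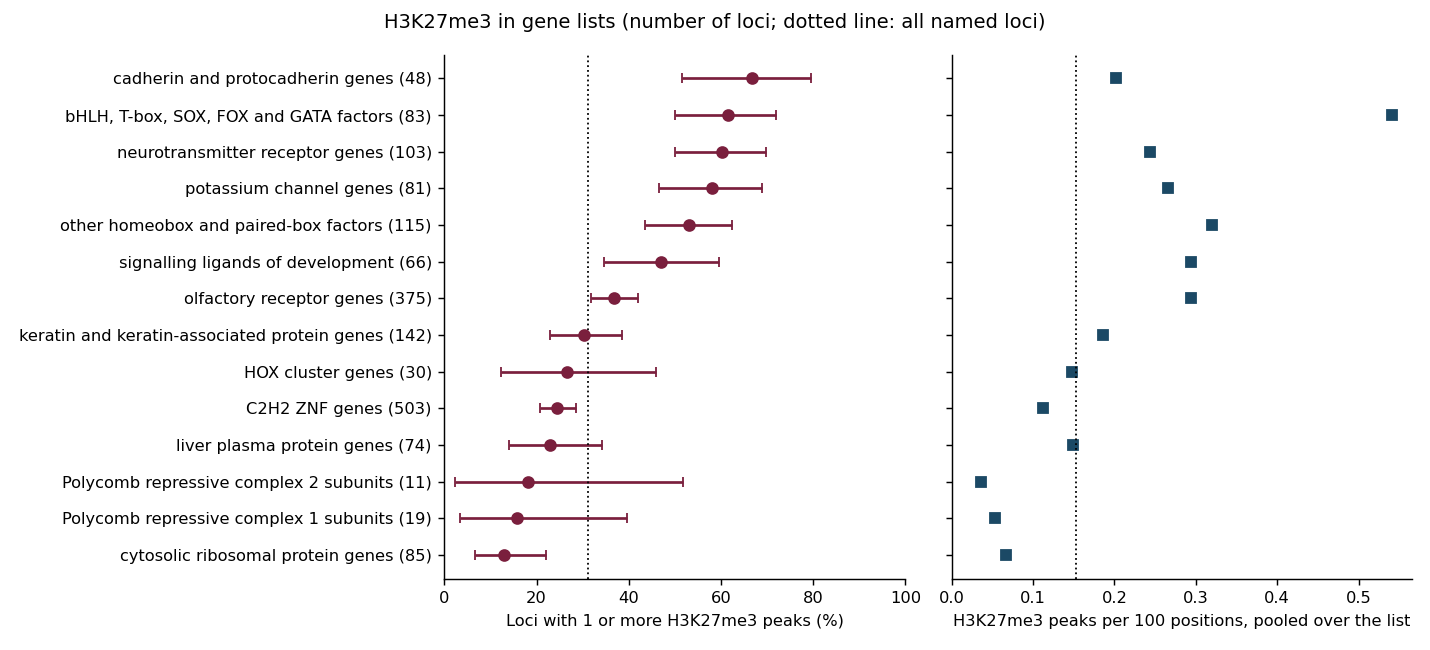
Left: percent of the loci of each list with at least 1 H3K27me3 peak, with exact 95% intervals. Right: peaks per 100 nucleosome positions pooled over the list. Dotted lines are all named loci (31.1% and 0.152), and the list of bHLH, T-box, SOX, FOX and GATA factors is the farthest right by density at 0.541, while the ribosomal protein genes are lowest by share at 12.9%. The 3 demethylase loci are not drawn.

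Peaks at the genes of the machinery itself were few, but so were the genes: the shares with a peak were 18.2% (2.28 to 51.8%) for Polycomb repressive complex 2 and 15.8% (3.38 to 39.6%) for complex 1, and both intervals include the 31.1% of all loci. All 11 loci of Polycomb repressive complex 2 subunits were at an FPKM of 1 or more, and 2 had a peak: EZH2, the methyltransferase, with 1 peak at an FPKM of 17.0 and 15.4, and MTF2 with 1 at 16.1 and 16.6. EED was at 12.3 and 12.8 and EZH1 at 3.81 and 3.86, both with 0 peaks. Of 19 loci of complex 1 subunits 3 had a peak, namely BMI1 with 2 at an FPKM of 28.8 and 28.3, CBX2 with 1 at 4.84 and 4.78 and CBX7 with 1 at 0.937 and 0.971. The demethylase genes KDM6A (6.74 and 6.66) and KDM6B (4.24 and 3.74, a row that it shares with TMEM88) had 0 peaks.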

How the data were processed

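The labels and the authors' methods describe native MNase-Seq, ChIP-Seq of 5 marks and RNA-Seq of HepG2, with 1 sample per assay. The authors aligned reads to hg19 (BWA is named in the submitters' processing notes), called nucleosome positions with DANPOS and called peaks at these positions against input and local background with NUCLIZE. They deposited coordinates and identifiers with no score, signal or count. The authors deposited FPKM in a table of Cuffdiff layout (TopHat2 2.1.0, Bowtie, HOMER 4.7 and edgeR are named in the notes), and whether its 2 columns are separate cultures is not given in the sources used here. The p-value, q-value and fold columns of the deposited table hold the authors' comparison of the columns and were not used.

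Peak and position midpoints were counted in each locus span with 10 kb on each side, in 100 kb windows, and within 2 kb of locus starts. Rows with a status of failed or too deep (5 named loci) were left out of expression classes. The strand was inferred from the order of rows and equalled that of RefSeq for 8543 of 8596 loci with their own span (99.4%) and 93.0% of those with a shared span, so starts were used only for the former. Named genes were the 20 loci with the most peaks, the 20 densest with at least 100 positions, the 15 densest windows, the 5 stretches with the most peaks, up to 4 members of each list, the 10 highest expressed with 5 or more peaks, and the Polycomb and demethylase genes. The sequences shown, the genes of the map of starts, the genes with 5 or more peaks near the start and the highest expressed loci with their own span were picked after their values were seen, as were MYO3A, TMEM108 and the compact runs at PGR, LPHN3 and TCHH. The members and lists were chosen with earlier results of these data known. Counting, chaining and intervals were tested on simulated data. The scripts used scipy 1.17.1, pandas 2.3.3, numpy 2.4.6 and matplotlib 3.10.9 under Python 3.11.15.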

Additional observations from a re-analysis of the deposited data

How the results depend on the processing

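Each assay has 1 sample, so no replicate could be left out, and the lists hold no scores, so no stricter peak threshold could be set. No paired analysis was possible because no groups of samples were compared. The share of loci with a peak (31.1%) was 21.2% with no flank, 26.0% with a flank of 5 kb, 39.4% with 20 kb and 29.9% in loci with their own span. The silent share of loci with no peak (29.9%) was 31.4% with no flank, 39.9% with silent set as an FPKM under 1 and 34.7% in loci with their own span, and that of loci with 10 or more peaks (77.0%) was 88.1% and 84.8% under the last 2. Without peaks that also carry H3K9me3, 9 windows had 10 or more. Stretches of 5 or more numbered 312 (6.78% of peaks) with a gap of 20 kb and 49 (1.11%) with 1 kb, a gap added after seeing the data, and held 2.07% of peaks with 5 kb. With no flank the share of loci with a peak was 10% for HOX, 35.7% for other homeobox, 37.3% for bHLH, T-box, SOX, FOX and GATA, 13.3% for olfactory receptor, 11.5% for ZNF, 21.1% for keratin, 13.5% for liver plasma protein and 3.53% for ribosomal protein genes. In loci with their own span it was 9.09% for HOX and 18.5% for keratin genes. The order of the silent share over peak classes was the same in all 5 alternatives run on it.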

Other observations

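Markers of cells other than hepatocytes included some H3K27me3 loci. The endothelial receptor gene KDR had 6 peaks at chr4:55944426-55991762, 3 of them within 2 kb of its start, with an FPKM of 0.112 and 0.120. The haemoglobin gene HBB had 2, in its flanks only, with an FPKM of 0.0749 and 0. COL1A2, a fibroblast collagen, had 2 at an FPKM of 1.32 and 0.996. The leukocyte genes PTPRC and CD3E were listed at 0 and had 0 peaks, so silent marker genes were found with and without the mark. ALB, the most expressed hepatocyte marker, had 1 peak in its span and flanks.

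Among compact runs of 5 or more peaks within 1 kb of each other, those on PDGFRA (chr4:55097414-55098469, FPKM 0.00685 and 0.0233), FLRT2 (0.0253 and 0.0570), MRC2 (0.0259 and 0.0184) and FBN2 (0.0671 and 0.0717) lay on genes under an FPKM of 0.1. ADCYAP1, a neuropeptide gene listed at 0, had 5 within 2.03 kb. These genes were picked after their values were seen. Over the 22 autosomes the shares of positions with H3K27me3 and with H3K9me3 had a Spearman's rho of 0.63, as a description of 2 libraries called against the same positions.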
